A study of Mus musculus with 6 samples.

Results

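The miR-23/27/24 clusters of the mouse are a pair of paralogous miRNA gene clusters, of which the a cluster holds Mir23a, Mir27a and Mir24-2 and the b cluster holds Mir23b, Mir27b and Mir24-1. Their 5 major mature miRNAs, mmu-miR-23a-3p, mmu-miR-23b-3p, mmu-miR-24-3p, mmu-miR-27a-3p and mmu-miR-27b-3p, were taken by name, and all 5 were found among the 1189 entries of every library. The libraries held small RNA of the prefrontal cortex, 1 library for each of 3 mice of the PND and 3 of the CON group. All 6 were male wild type C57BL/6 mice aged 18 months (the sample names carry 17M, which the labels do not explain), and both groups had gone through behavioural testing before the tissue was taken. The PND mice, a model of postoperative neurocognitive disorder, breathed 1.5% isoflurane for 30 min and then underwent a laparotomy of 30 min under isoflurane, with lidocaine on the wound afterwards. The CON mice received neither anaesthesia nor operation at that stage, so anaesthesia, surgery and wound care cannot be told apart here. At harvest, days after the operation and after the last behavioural test, mice of both groups were deeply anaesthetized with isoflurane and perfused with saline. The comparisons ask how far the a and b paralogs differ in level, and whether any of the miRNAs differed between PND and CON.

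A miRNA guides an Argonaute protein to messenger RNAs that pair with its bases 2 to 8, the seed, and lowers their translation or stability. Each hairpin gives a 5p and a 3p product, and usually 1 of them accumulates. The hairpins of a cluster lie on a common primary transcript, though their levels can still come to differ through processing and turnover. In background knowledge the miR-23 and miR-27 families are studied for their part in blood vessel growth and endothelial cells, miR-27 also in fat cell differentiation, and miR-24 in cell cycle control, and all of them are found in brain. miR-128, a miRNA abundant in neurons, is known for a seed that overlaps that of miR-27.

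The mature sequences below show what tells the miR-27 paralogs apart. miR-23b-3p had no mature entry in the source used, so the miR-23 paralogs were not compared base by base. They are those of RefSeq on GRCm38.p6, in which 4 of the 5 miRNAs had a mature entry, and capitals mark the seed, bases 2 to 8.
mmu-miR-23a-3p: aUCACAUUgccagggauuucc
mmu-miR-27a-3p: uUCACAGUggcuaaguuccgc
mmu-miR-27b-3p: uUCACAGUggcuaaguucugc
mmu-miR-24-3p: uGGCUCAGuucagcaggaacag
mmu-miR-128-3p: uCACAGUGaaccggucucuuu
miR-27a-3p and miR-27b-3p share their seed and their first 18 of 21 bases, and differ by the single substitution C19U (miR-27a-3p base first, counted from 1 at the 5′ end). miR-23a-3p shares bases 2 to 6 with miR-27a-3p, and its seed then departs from that of miR-27. miR-27 bases 2 to 9 recur as bases 1 to 8 of miR-128-3p, a run of 8 bases, while the seed of miR-24-3p is unlike the others.

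miR-24-3p has the same sequence in Mir24-2 and Mir24-1, so its reads cannot be assigned to a cluster. The 5p products of the same hairpins can be, since after their first 16 bases they differ at 5 positions counted base by base, marked by capitals here. They are 23 and 22 bases long and both end in CAGU, so some of these positions reflect the difference in length.
mmu-miR-24-1-5p: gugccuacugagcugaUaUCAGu
mmu-miR-24-2-5p: gugccuacugagcugaAaCAGU
The number of mismatches allowed in the alignment and the treatment of reads with several matches are not given in the sources used here. An exchange of reads between miR-27a-3p and miR-27b-3p, or between miR-23a-3p and miR-23b-3p, was therefore not tested.

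In GENCODE M21 on GRCm38, the a cluster spans chr8:84208518-84208921, 404 bp on the plus strand, and none of its 3 hairpins overlaps a protein-coding gene. Mir24-2 overlaps the long noncoding RNA gene Gm26532. The b cluster spans chr13:63300484-63301275, 792 bp on the plus strand, inside the protein-coding gene 2010111I01Rik on the same strand and opposite Fancc, a Fanconi anaemia DNA repair gene. Mir23b is intronic in all 9 transcripts of 2010111I01Rik that span it. Mir27b overlaps an exon of 1 of 9 such transcripts and Mir24-1 an exon of 4 of 8, and none of these overlaps touches coding sequence. The build named for the libraries by the submitters' notes is older than this annotation, and the positions were used for location only, not to read the libraries.

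Levels are given in CPM, the reads of a miRNA per 1000000 miRNA reads of its library, and each library held 14849461 to 19471226 such reads. A floor of 3 reads corresponds to 0.154 to 0.202 CPM, so the 5 miRNAs lay far above it, and intervals from read numbers cover counting error only. The labelled tissue was checked against marker miRNAs: the 3 neuron markers miR-124-3p, miR-9-5p and miR-128-3p together took 278690 to 370417 CPM. Most of this was miR-128-3p (176370 to 292349 CPM) and miR-9-5p (74050.5 to 96142.9 CPM), while miR-124-3p took 4018 to 6178 CPM. The oligodendrocyte markers summed to 1382 to 1756 CPM, the choroid plexus markers to 585 to 926 CPM, the muscle markers to 413 to 601 CPM and the leukocyte or microglia markers to 7.41 to 21.4 CPM. The CON1 library stood apart in its 5 epithelial or olfactory markers, with a sum of 861 CPM against 27.3 to 36.7 CPM in the other 5. PND1 had the highest sum of the 5 red blood cell markers, 191 CPM against 84.9 to 117 CPM, with miR-451a at 40.9 CPM. In CON2, miR-128-3p alone took 292349 CPM, the highest of the 6 libraries.

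miR-27b-3p was the most abundant of the 5 miRNAs, with 10329, 12028 and 12719 CPM in the PND mice and 9947, 9392 and 10478 CPM in the CON mice. It ranked 18th or 19th of the 1189 entries in every library. miR-24-3p followed, with 2658, 2842 and 2735 CPM in PND and 2891, 2780 and 2693 CPM in CON. miR-27a-3p had 1263, 1247 and 1265 CPM in PND and 1251, 1232 and 1219 CPM in CON. These 3 miRNAs were separated by clear gaps, since miR-27b-3p exceeded miR-24-3p 3.38- to 4.65-fold and miR-24-3p exceeded miR-27a-3p 2.11- to 2.31-fold within the same library.

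The miR-23 pair was lower. miR-23b-3p had 425, 483 and 475 CPM in PND and 450, 424 and 425 CPM in CON. miR-23a-3p had 365, 398 and 414 CPM in PND and 405, 394 and 330 CPM in CON. The order from miR-27b-3p through miR-24-3p, miR-27a-3p and miR-23b-3p to miR-23a-3p held in 6 of 6 libraries, but the last neighbours lay close together: miR-23b-3p exceeded miR-23a-3p by 1.08- to 1.29-fold within a library, and its lowest value of 424 CPM lay just above the highest miR-23a-3p value of 414 CPM. With TMM factors these ranges overlapped, but the order within each library, which no scaling can change, stayed as it was. Together the 5 miRNAs made up 1.42% to 1.76% of the miRNA reads, each share with a Wilson 95% interval no wider than 0.00613 percentage points to either side.

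**Figure D1:**
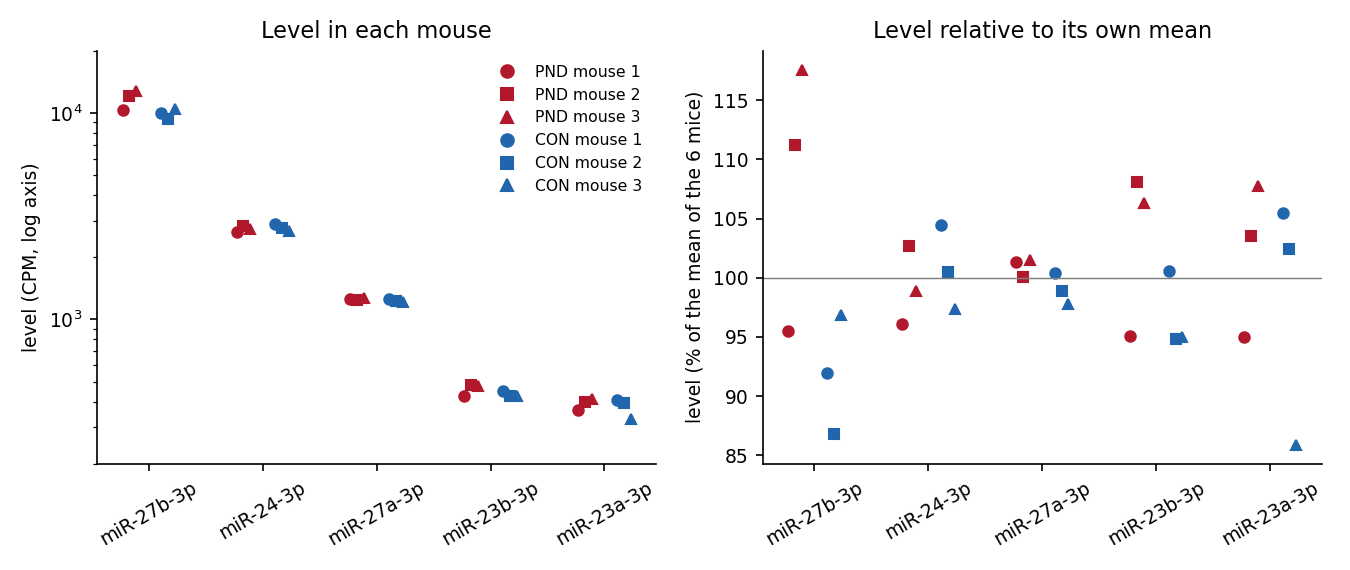
Level of the 5 miRNAs in the 6 libraries. Left, CPM on a log axis; right, the same values as percent of the mean of the 6 mice for that miRNA; red symbols are PND mice, blue symbols CON mice, and the symbol shape is the mouse number. On the left the 5 miRNAs keep 1 order in all mice, and on the right miR-27a-3p stays between 97.8% and 101.5% of its mean while miR-27b-3p runs from 86.8% to 117.6%, on the scale of the library total.

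Within a library the b paralog was higher for both families, by a small margin for miR-23 and a large one for miR-27. miR-27b-3p exceeded miR-27a-3p 8.18-, 9.64- and 10.06-fold in the PND mice and 7.95-, 7.62- and 8.60-fold in the CON mice. miR-23b-3p exceeded miR-23a-3p 1.16-, 1.21- and 1.15-fold in PND and 1.11-, 1.08- and 1.29-fold in CON. All 12 of these ratios lie above 1. The mean log2 ratio of a over b was -3.11 ± 0.16 (SD, n = 6) for miR-27 and -0.22 ± 0.09 (SD, n = 6) for miR-23, and each gave p = 0.031 in an exact two-sided sign-flip permutation test over the mice, the smallest p that 6 mice allow, which stayed 0.031 after Benjamini-Hochberg adjustment over the 4 pairs tested. Counted as shares, miR-27b-3p held 88.4% to 90.96% of the miR-27 reads and miR-23b-3p 51.9% to 56.3% of the miR-23 reads. These are ratios of reads: how well each sequence is captured by the library preparation was not measured, so they need not be ratios of molecules. An exchange of reads between paralogs was not tested either, and the miR-23 margin of 1.08- to 1.29-fold is small.

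The less abundant 5p products showed the same direction for miR-27 and the opposite one for miR-24. miR-27b-5p exceeded miR-27a-5p 1.44- to 2.08-fold, a mean log2 ratio of a over b of -0.80 ± 0.18 (SD, n = 6). miR-24-2-5p, the product of the a cluster, exceeded miR-24-1-5p of the b cluster 19.0- to 29.9-fold, a mean log2 ratio of 4.55 ± 0.26 (SD, n = 6). Both again gave the smallest exact sign-flip permutation p, 0.031, also after adjustment. The b cluster was thus higher in the miR-23 and miR-27 products and the a cluster in the 5p product of miR-24, in 6 of 6 libraries each. miR-23a-5p was at the edge of detection, with 4, 0 and 6 reads in PND and 1, 4 and 0 reads in CON, while miR-23b-5p had 13 to 43 reads, so no ratio was tested for that pair although miR-23b-5p was higher in 6 of 6 libraries.

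**Figure D2:**
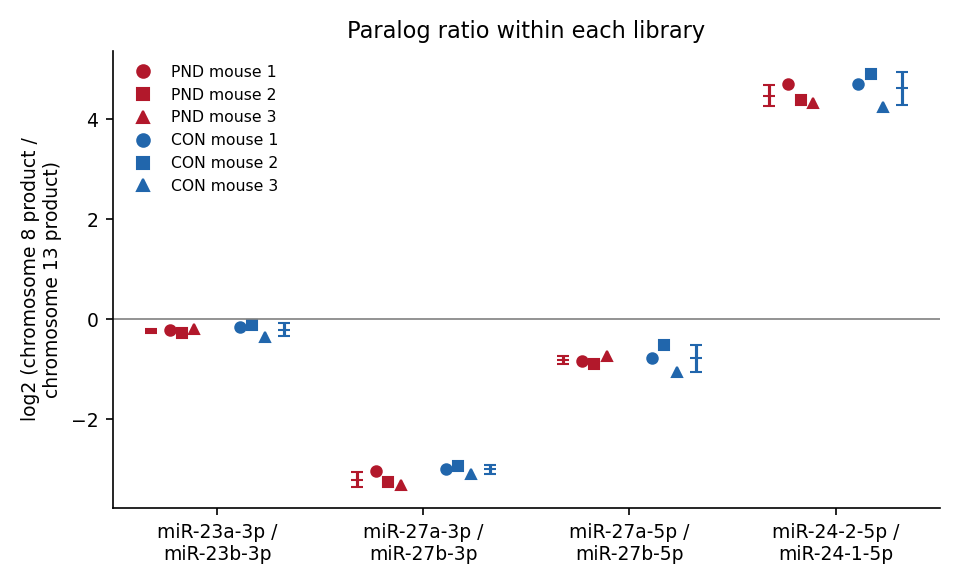
Log2 ratio of the product from chromosome 8 (a cluster) over the one from chromosome 13 (b cluster) within each library, by mouse; bars give mean ± SD of the 3 PND (red) or 3 CON (blue) mice and the grey line marks equal reads. Of the 4 pairs, 3 lie below the line in all 6 mice and miR-24-2-5p over miR-24-1-5p lies above it in all 6, and in each pair the PND and CON points overlap.

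The 3p product was the dominant one in the 4 hairpins that can be assigned. miR-27b-3p exceeded miR-27b-5p 558- to 1058-fold, miR-23b-3p exceeded miR-23b-5p 160- to 647-fold, and miR-27a-3p exceeded miR-27a-5p 105- to 175-fold. The range for miR-23b was the widest, over only 13 to 43 reads of the 5p product. For miR-23a-3p the excess over the floor of 3 reads was at least 2334-fold in PND2 and at least 1770-fold in CON3, where no read of miR-23a-5p was found. The hairpins of miR-27 therefore differed more in their 3p products, 7.62- to 10.06-fold, than in their 5p products, 1.44- to 2.08-fold, and these ranges over the 6 mice do not overlap. In the 3 hairpins with a value in every library, the arm ratio overlapped between PND and CON. The log2 ratio of 3p over 5p was higher in PND by 0.71 for miR-23b (0.23 without PND3 to 1.03 without PND1), by 0.35 for miR-27b (0.18 without PND3 to 0.50 without PND1) and by 0.18 for miR-27a (-0.021 without CON2). The exact two-sided permutation p was 0.2 for miR-27b, 0.3 for miR-23b and 0.7 for miR-27a, with adjusted values of 0.45, 0.45 and 0.7, in a design whose smallest p is 0.1.

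**Figure D3:**
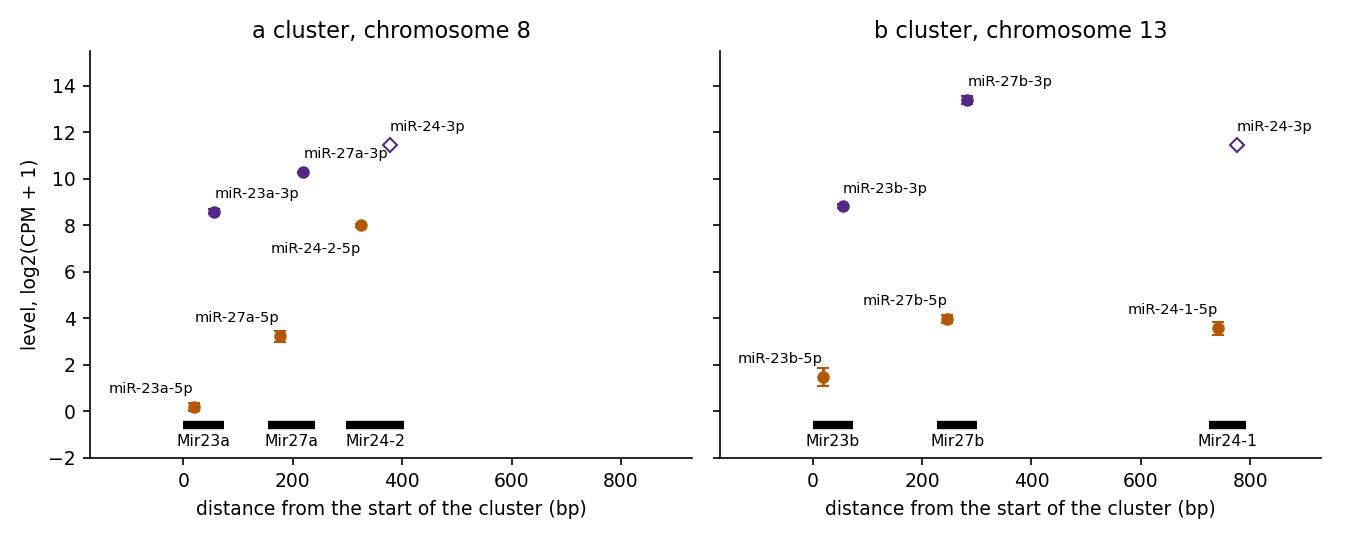
Mean level of each product over the 6 mice, as log2(CPM + 1), above its hairpin (black bars, drawn to scale in bp from the start of each cluster); orange points are 5p and purple points 3p products, placed schematically over the left and right part of the hairpin, and bars give the SD. miR-24-3p, the open diamond, is drawn over both hairpins that can give it; miR-27b-3p is the highest point in the b cluster and miR-24-2-5p the highest 5p product.

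Compared with the CON group, none of the 5 miRNAs passed the test in the PND group. limma on log2(CPM + 1) called 0 of 5 at an adjusted p under 0.05, where it called 5 of all 1189 entries, a background of 0.421%. Those 5 entries carry no miRBase name, average only 0.377 or 0.406 CPM, and share identical values among themselves at each of these levels. They are thus no measure of entries as abundant as the 5 miRNAs. At an unadjusted p under 0.05 limma again called 0 of 5, against 5.13% of all entries. By the study's limits (a log2 fold change beyond 1 in either direction at an unadjusted p under 0.05) limma called 0 of 5, against 0.0841%. That share belongs to limma on log2(CPM + 1), which understates low entries. The study names edgeR for its p-values and took fold changes of its normalized values, so its own count is not comparable. With a pseudocount of 0.1 CPM, limma called 22 of all 1189 entries by these limits. On the recovered reads, edgeR and DESeq2 also called 0 of 5 at each of these limits. Of all 1189 entries, edgeR called 5 at the adjusted p, 50 at the unadjusted p and 32 by the study's limits. DESeq2 called 5, 28 and 11 in the same order. In bulk tissue fewer cells of a type and less RNA per cell cannot be told apart, and this holds for each value below.

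miR-27b-3p had the largest difference of the 5, with 11692 ± 1230 CPM (SD, n = 3) in PND and 9939 ± 543 CPM (SD, n = 3) in CON, a log2 fold change of 0.23 with a standard error of 0.10 and a 95% interval of -0.01 to 0.47. PND2 and PND3 lay above all 3 CON mice, whereas PND1 lay below CON3, so the groups overlapped. The limma p was 0.0567 before and 0.768 after Benjamini-Hochberg adjustment, and the exact two-sided permutation p was 0.2. The fold change shrank to 0.11 with TMM factors and 0.08 with DESeq2 size factors. Without PND1 it was 0.32, with an unadjusted limma p of 0.0120 and an adjusted one of 0.586. In that fit 88 of all 1189 entries had an unadjusted p under 0.05, against 61 with all 6 mice. Without 1 of the other mice the fold change was 0.17 to 0.27, with unadjusted limma p-values of 0.0609 to 0.163. PND1 was also the library with the highest red blood cell markers, and the part of those in this result was not tested.

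For the other 4 miRNAs the groups overlapped and the differences were small against the spread. miR-23b-3p averaged 461 ± 31.6 CPM in PND and 433 ± 14.6 CPM in CON (SD, n = 3 each), a log2 fold change of 0.09 (standard error 0.10) with a limma adjusted p of 0.768. miR-23a-3p averaged 392 ± 25.1 CPM in PND and 376 ± 40.5 CPM in CON (SD, n = 3 each), a log2 fold change of 0.06 (standard error 0.12) with a limma adjusted p of 0.902. In the miR-23 pair PND1 was the lowest of the PND mice for both paralogs, and CON3 held the lowest miR-23a-3p value of all. miR-27a-3p averaged 1258 ± 9.48 CPM in PND and 1234 ± 16.0 CPM in CON (SD, n = 3 each), a log2 fold change of 0.03 (standard error 0.08) with a limma adjusted p of 0.955. miR-24-3p averaged 2745 ± 92.2 CPM in PND and 2788 ± 98.9 CPM in CON (SD, n = 3 each), a log2 fold change of -0.02 (standard error 0.08) with a limma adjusted p of 0.965. The 95% intervals of the log2 fold change ran from -0.15 to 0.33 for miR-23b-3p, from -0.21 to 0.34 for miR-23a-3p, from -0.17 to 0.22 for miR-27a-3p and from -0.22 to 0.17 for miR-24-3p. These bounds lie within a log2 fold change of 1 in either direction.

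The sign of these small differences depended on the library scaling. The median log2 fold change of the 361 entries with a mean of at least 10 CPM was 0.14 on the scale of the library total, and it moved by -0.12 with TMM factors and by -0.15 with DESeq2 size factors. Of the 5 miRNAs the median was 0.06, so relative to these entries only miR-27b-3p stood above their median. miR-23a-3p, miR-23b-3p and miR-27a-3p were higher in PND on the library total and lower in PND with either set of factors, whereas miR-27b-3p stayed higher and miR-24-3p stayed lower under all 3. With TMM factors every CON mouse lay above every PND mouse for miR-24-3p, at 2803, 3232 and 2714 CPM in CON against 2661, 2671 and 2560 CPM in PND, a log2 fold change of -0.14 with a limma adjusted p of 0.818 and an exact permutation p of 0.1, the smallest possible. On that scale 3.45% of all entries had CON above PND without overlap and 5.38% had PND above CON. The TMM factor that departed most was that of CON2, which multiplied its CPM by 1.16 against 0.936 to 1.01 in the other 5 libraries, and CON2 was the library with the highest miR-128-3p.

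**Figure D4:**
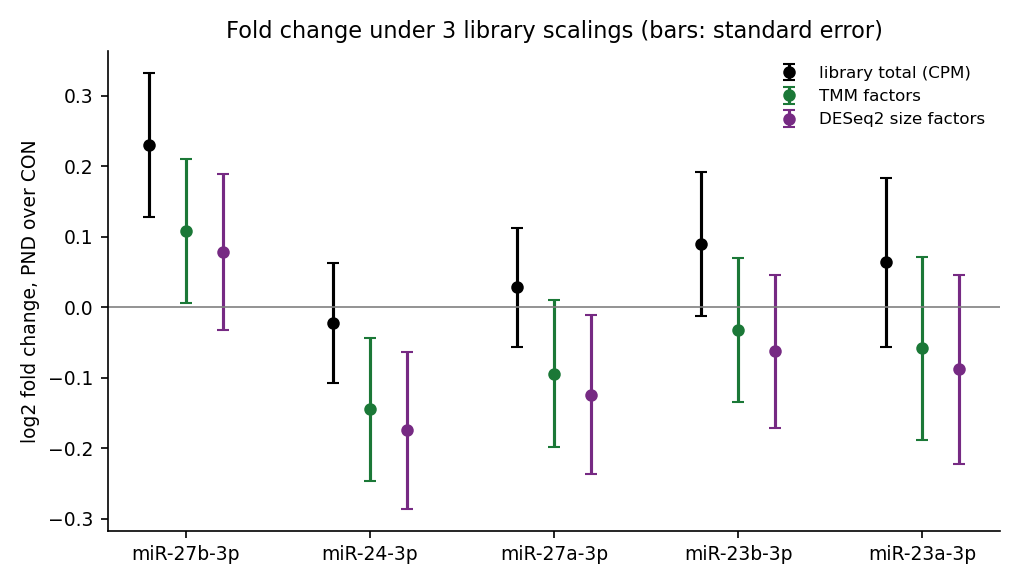
Log2 fold change of PND over CON for the 5 miRNAs with the library total, TMM factors or DESeq2 size factors as the scale; bars give the limma standard error. miR-27b-3p stays above 0 at 0.23, 0.11 and 0.08 and miR-24-3p stays below 0, while miR-27a-3p, miR-23b-3p and miR-23a-3p change sign with either set of factors.

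The other products of the same hairpins, taken with the miR-3074 entries from hairpins on the opposite strand, gave a like picture. Of the 8 further entries, limma called 0 at an adjusted and 0 at an unadjusted p under 0.05. miR-24-2-5p, the 5p product of the a cluster, was the only one of these 8 whose groups did not overlap, with 257, 254 and 267 CPM in PND and 243, 248 and 249 CPM in CON. PND was above CON without overlap in 7.91% of all entries and CON above PND in 2.02%. Its log2 fold change was 0.07 (standard error 0.10) with a limma adjusted p of 0.831 and an exact permutation p of 0.1, the smallest possible, and with TMM factors the groups overlapped and the log2 fold change turned to -0.05. Its counterpart in the b cluster, miR-24-1-5p, had 9.76, 12.2 and 13.3 CPM in PND and 9.23, 8.28 and 13.1 CPM in CON.

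miR-27b-5p had 15.4, 14.8 and 12.0 CPM in PND and 13.2, 16.8 and 15.8 CPM in CON, and miR-27a-5p had 7.23 to 8.63 CPM in PND and 7.58 to 11.7 CPM in CON. The log2 fold change of miR-27b-5p was -0.11 (standard error 0.16), and it was -0.21 without CON1 and -0.011 without PND3. miR-3074-5p, which is read from the opposite strand of the miR-24 hairpins and whose reverse complement shares a run of 20 bases with miR-24-3p, had 3.01 to 4.52 CPM in PND and 2.36 to 3.54 CPM in CON. miR-23b-5p had 0.734 to 2.00 CPM in PND and 1.55 to 2.81 CPM in CON, and miR-3074-1-3p had 2 to 10 reads per library. In each of these 5 entries the groups overlapped.

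**Figure D5:**
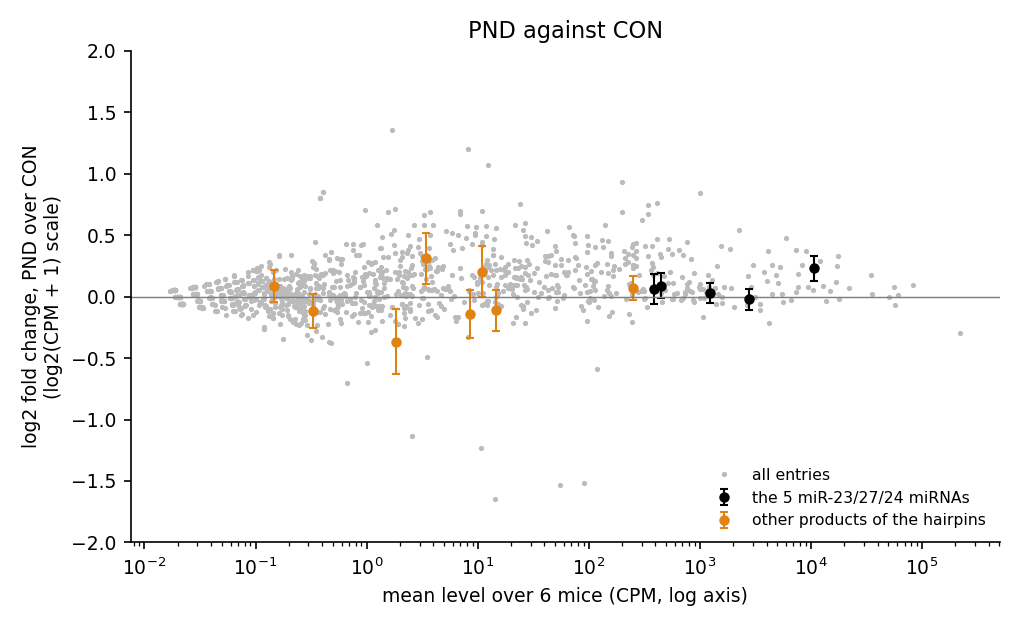
Log2 fold change of PND over CON, on the log2(CPM + 1) scale, against the mean level over the 6 mice on a log axis. Grey points are all 1189 entries, black points the 5 miRNAs and orange points the 8 other products of their hairpins, with bars of 1 standard error; the 5 black points lie between -0.02 and 0.23, and those of miR-23a-3p, miR-23b-3p and miR-27a-3p change sign with TMM or DESeq2 size factors.

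The balance of the paralogs, which no library scaling can move, was also compared between the groups. The log2 ratio of miR-27a-3p over miR-27b-3p averaged -3.21 ± 0.16 (SD, n = 3) in PND and -3.01 ± 0.09 (SD, n = 3) in CON. PND2 and PND3 had the lowest ratios of the 6 mice, and PND1 lay between CON1 and CON3. The difference of -0.20 had an exact two-sided permutation p of 0.2 and an adjusted p of 0.8 over the 4 pairs. The ratio of miR-23a-3p over miR-23b-3p differed by -0.03 (exact permutation p = 0.8), that of miR-27a-5p over miR-27b-5p by -0.04 (exact permutation p = 0.9) and that of miR-24-2-5p over miR-24-1-5p by -0.15 (exact permutation p = 0.6). The last of these ran from -0.34 without CON3 to -0.010 without CON2. The groups overlapped in all 4 pairs, and 3 mice against 3 cannot give a p below 0.1.

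Summed by cluster, miR-23a-3p and miR-27a-3p took 1627, 1645 and 1679 CPM in PND and 1656, 1626 and 1549 CPM in CON. miR-23b-3p and miR-27b-3p took 10754, 12511 and 13194 CPM in PND and 10397, 9816 and 10903 CPM in CON. The sum of the b cluster followed miR-27b-3p, its larger part, and the groups overlapped in both sums. All 5 miRNAs together took 16549 ± 1342 CPM (SD, n = 3) in PND and 14770 ± 485 CPM (SD, n = 3) in CON, and with TMM factors 15837 ± 724 and 15427 ± 1032 CPM. The endothelial markers miR-126a-3p and miR-126a-5p summed to 13326 to 13992 CPM in PND and 11991 to 14372 CPM in CON, and the mural cell markers miR-143-3p and miR-145a-5p to 8727 to 9898 and 6689 to 9670 CPM. Both marker sums overlapped between the groups, and their part in the levels of the 5 miRNAs was not tested.

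Correlations across the 6 libraries were listed for the paralogs of each family and for the products of each cluster. As a description, with 6 points that share their library totals, Pearson's r of log2(CPM + 1) was 0.47 for miR-27a-3p and miR-27b-3p and 0.66 for miR-23a-3p and miR-23b-3p. Within the b cluster r was 0.84 for miR-23b-3p and miR-27b-3p, and within the a cluster 0.62 for miR-23a-3p and miR-27a-3p. miR-24-3p had an r of -0.04 with miR-27b-3p and 0.01 with miR-27a-3p, but 0.64 with miR-23a-3p and 0.50 with miR-23b-3p. The differences between these values were not tested.

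Among 353 other entries with a mean of at least 10 CPM, those most like miR-27b-3p over the 6 libraries were miR-592-5p (r = 0.98), miR-203-3p (r = 0.97) and miR-582-3p (r = 0.97). miR-592-5p had 124, 154 and 185 CPM in PND and 120, 98.8 and 127 CPM in CON, so that like miR-27b-3p it was highest in PND3 and lowest in CON2. Most like miR-23b-3p were miR-181a-5p, miR-26b-5p and miR-16-5p, with r of 0.98, 0.98 and 0.97. For miR-23a-3p they were miR-150-5p, miR-195a-5p and miR-873a-3p, with r of 0.98, 0.85 and 0.83. miR-150-5p shared with miR-23a-3p its lowest value in CON3, 264 CPM, against 288 to 312 CPM in the other 5 libraries. For miR-24-3p they were miR-664-5p, miR-1249-3p and miR-125b-5p, with r of 0.96, 0.93 and 0.86, each of them highest in CON1, the library with the high epithelial or olfactory markers. For miR-27a-3p they were miR-377-5p, miR-151-5p and miR-134-5p, with r of 0.92, 0.90 and 0.90. With 6 points and 353 candidates, high values of r at the top of such a list are selected by the ranking itself. The lists were made on the scale of the library total and were not repeated with TMM factors. With those factors miR-24-3p and miR-27a-3p were both highest in CON2, at 3232 and 1432 CPM.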

How the data were processed

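Small RNA libraries of 6 mice, 3 PND and 3 CON, were grouped by the treatment in their labels. The values the authors deposited are CPM per miRNA (called TPM in the study's methods), after adapter and quality filtering, alignment with Bowtie (version 0.12.2 in the submitters' processing notes, which name the builds mm8 and mm9) and naming by miRBase. The methods state TMM scaling, yet each column sums to 1000000 within rounding, so a scaling between libraries cannot be seen in the values. The methods name a small RNA kit for the libraries and the labels a total RNA kit. In every library 100% of values were whole multiples of 1 read within 0.05 reads, and the reads recovered this way (14849461 to 19471226 per library) gave depth, TMM factors and the count tests. Of the 1189 entries, 33 carry no miRBase name. Labels and methods describe separate mice, which were counted as replicates.

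The 5 miRNAs and all lists were chosen with earlier results of these data known. Main test: limma 3.58.1 (eBayes with trend, R 4.3.3, two-sided) on log2(CPM + 1) of all entries, without filter or covariate, with Benjamini-Hochberg adjustment over all of them. Fold changes are on that scale, which understates low entries. Single values and ratios within a library were compared by exact permutation tests over mice (scipy 1.17.1), with Benjamini-Hochberg adjustment over the pairs. edgeR 4.0.16 and DESeq2 1.42.0 were run on the recovered reads as alternatives, beside another pseudocount (0.1 CPM), a minimum mean of 10 CPM, TMM and DESeq2 size factors, limma without trend, a replicate block and leaving out each mouse. Of these fits, limma with trend, limma with the replicate block, edgeR and DESeq2 were first tested on simulated data. The changes planted there were far larger than those of the 5 miRNAs, so the simulation does not measure power at that size. Named were the 5 miRNAs, 8 further entries, miR-128-3p, the 3 entries most correlated with each miRNA, and marker lists of 9 cell types or tissues. The 8 were other products of the same hairpins and the miR-3074 entries, from hairpins on the opposite strand. They were 7 of the 8 entries looked for, and miR-3074-1-3p, added after the list was seen. Sequences are RefSeq's (GRCm38.p6) and positions GENCODE M21's.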

Additional observations from a re-analysis of the deposited data

How the results depend on the processing

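No alternative gave any of the 5 miRNAs an adjusted p under 0.05, and their adjusted p-values ran from 0.570 to 1 over all of them. The log2 fold change of PND over CON turned negative with TMM factors, DESeq2 size factors, edgeR and DESeq2, in this order, for miR-23a-3p (-0.058, -0.088, -0.070, -0.10), miR-23b-3p (-0.032, -0.062, -0.035, -0.066), miR-27a-3p (-0.094, -0.12, -0.097, -0.13) and miR-24-2-5p (-0.050, -0.080, -0.055, -0.086). These 4 settings rescale the libraries, and the 2 sets of factors moved the median by -0.12 and -0.15. Leaving out 1 mouse gave -0.028 to 0.12 for miR-23a-3p (negative without CON3), -0.048 to 0.0040 for miR-24-3p (positive without PND1 or CON1), -0.010 to 0.20 for miR-23a-5p (negative without PND3), -0.24 to 0.044 for miR-27a-5p (positive without CON2) and -0.21 to 0.0027 for miR-3074-1-3p (positive without CON3). It gave 0.17 to 0.32 for miR-27b-3p, 0.055 to 0.15 for miR-23b-3p (lowest without PND2, highest without PND1) and -0.21 to -0.011 for miR-27b-5p (without CON1 and without PND3). The PND minus CON difference of the log2 ratio ran from -0.10 to 0.024 for miR-23a-3p over miR-23b-3p (positive without CON1 or CON2), from -0.17 to 0.093 for miR-27a-5p over miR-27b-5p (positive without CON2) and from -0.021 to 0.29 for miR-27a-3p over miR-27a-5p (negative without CON2). No miRNA among these had an adjusted p under 0.05 in any of these fits. Without PND1, miR-27b-3p had an unadjusted limma p of 0.0120 and an adjusted one of 0.586. Without 1 of the other mice its unadjusted limma p was 0.0609 to 0.163. The ratios without 1 mouse are values with no test. The cause of the changes was not tested.

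Of all 1189 entries, 5 passed at an adjusted p under 0.05, against 0 with a minimum mean of 10 CPM, 0 without trend, 0 with the replicate block and 0 to 3 without 1 mouse, and 5 each by edgeR and DESeq2. An unadjusted p under 0.05 was found for 61, against 5 with the minimum mean, 57 without trend, 56 with the replicate block, 50 by edgeR, 28 by DESeq2 and 31 to 91 without 1 mouse. By the study's limits 1 entry was called, against 22 with a pseudocount of 0.1 CPM, 0 with the minimum mean, 0 without trend, 2 with the replicate block, 32 by edgeR, 11 by DESeq2 and 0 to 1 without 1 mouse. Same-numbered mice correlated in their deviations with r of -0.13, 0.12 and 0.51, and differently numbered mice with r of -0.55 to 0.50. With so few mice these values cannot settle whether the numbers pair them. The numbers were not taken to pair the mice, and the replicate block changed no call on the 5 miRNAs. The a over b ratios kept their direction in every alternative run, with a pseudocount of 1 CPM or without 1 mouse. At this depth counting error is small for the 5 miRNAs, and the number of mice sets the precision.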

Other observations

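On the scale of the library total, miR-27a-3p had the smallest coefficient of variation over the 6 mice, 1.43%, of all 361 entries with a mean of at least 10 CPM, whose median was 13.7%. Its variance was still 4.26 times that of counting error alone (chi-square per degree of freedom). miR-24-3p was the 7th smallest with 3.21%, and miR-24-2-5p the 10th with 3.32%, while miR-27b-3p, 1 base different from miR-27a-3p, had 11.9% and the 154th place. With TMM factors, an alternative chosen after these values were seen, miR-27a-3p had 7.65% and the 75th place of the 361 entries. On that scale miR-24-3p had 8.58% and miR-27b-3p 7.30%, against a median of 11.7% over the 361. The place of miR-27a-3p at the low end of the spread therefore held on the library total and not with TMM factors.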
